A study of Mus musculus with 9 samples.

Results

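The genes that write, copy and remove DNA methylation were compared between 3 clones of activated CD8 T cells. They are the DNA methyltransferases Dnmt1, Dnmt3a and Dnmt3b, the maintenance factor Uhrf1 and the dioxygenases Tet1, Tet2 and Tet3. They were chosen by gene symbol as a functional family and make up 7 of the 24060 genes in the expression table. All 7 were listed, and 6 of them were among the 11330 genes whose level exceeded 1 TPM in at least 1 library, which were the genes tested. TPM is a share of all transcripts of a library, corrected for transcript length.

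The cells, named R7-I, R7-II and R7-III, came from transnuclear mice, which are derived by nuclear transfer from a single T cell and carry its rearranged T cell receptor in their own loci. Each line thus stands for 1 receptor. All lines were on a BALB/c background with intact Rag2, their receptors recognise the same ROP7 peptide of Toxoplasma gondii, and the ages of the mice are not given in the sources used here. Per the series' design text, affinity for that peptide ranks R7-I over R7-III over R7-II, whereas self-reactivity ranks R7-III over R7-I over R7-II. Spleen cells of every clone were treated alike, with ROP7 peptide at 10 µM and IL-2 at 10 ng/ml overnight, before CD3+ CD8+ cells that bound H-2Ld-Rop7 were sorted for polyA RNA sequencing, with 3 libraries (biological replicates) per clone. Unstimulated cells were not analysed here, so a level measured after activation cannot be split into the level before it and the response. With 1 receptor per clone, differences between clones cannot be told apart from other differences between the mouse lines.

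In mammalian cells, methylation of cytosine in CpG pairs is copied after each round of DNA replication. UHRF1 binds the half-methylated DNA behind the replication fork and recruits DNMT1, which methylates the new strand. DNMT3A and DNMT3B place methyl groups at sites that had none, and in T cells DNMT3A is known for shutting off genes of alternative fates. The TET enzymes oxidise methylcytosine, after which the mark is lost by dilution over cell divisions or by base excision, and TET2 is known as a regulator of CD8 T cell memory formation.

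Promoter sequences are shown first, since Uhrf1 and Dnmt1 are known as genes of proliferating cells and the clones differed in such genes. Windows of 300 bases, from 250 before to 50 after an annotated transcription start, were taken from RefSeq on build GRCm38.p6, which gave 12 windows for all 7 genes and is the reference mouse genome, not that of the BALB/c animals. Each was searched on both strands for the word TTCCCGC and its variants, spelled TTGGCGC, or else TTGCCGC, or else TTCGCGC, which are forms of the site bound by E2F factors, the regulators of DNA replication genes. A word stood in 3 of the 12 windows, namely 1 of Dnmt1 and both of Uhrf1, and in none of the windows of Dnmt3a, Dnmt3b, Tet1, Tet2 and Tet3. Over all 32851 windows of 27025 genes, 9.6% held a word, and the share was 19% among windows with at least 10 CpG. The matches are 21-base stretches written 5′ to 3′ along the gene, with the word, or its reverse complement, in capitals, and no match overlapped another. The window of Dnmt1 that holds 3 of them lies inside the annotated gene, at its most downstream start. The windows of Dnmt3a, Tet2 and Tet3 also lie inside their annotated genes and do not reach the outer 5′ end. The lack of a word in these genes thus covers only the windows searched.
Dnmt1, chr9:20952829-20952849, minus strand, word at position -219 from the start: tccgcgcGCGCGAAaaagccg
Dnmt1, chr9:20952768-20952788, minus strand, word at -158: gatgccaGCGCGAAcagctcc
Dnmt1, chr9:20952576-20952596, minus strand, word at 34: gcagcgtTTGGCGCgggctgt
Uhrf1, chr17:56303282-56303302, plus strand, word at -48: ttctcgcTTCCCGCcacagcg

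The other Uhrf1 start has its word, in capitals below, at position -184. The 250 bases before that start are set beside those before the only Tet3 start searched, which hold none of the words. Both starts lie inside their annotated genes, and the outer 5′ end of Tet3 was not searched. Both stretches are rich in CpG, the sequence at which methylation is placed, with 30 CpG for Uhrf1 and 17 for Tet3. Per window of 300 bases the 12 windows held from 2 to 57 CpG, against a median of 7.0 over all windows. A match describes letters only, and binding was not measured.
Uhrf1, chr17:56304063-56304312, plus strand: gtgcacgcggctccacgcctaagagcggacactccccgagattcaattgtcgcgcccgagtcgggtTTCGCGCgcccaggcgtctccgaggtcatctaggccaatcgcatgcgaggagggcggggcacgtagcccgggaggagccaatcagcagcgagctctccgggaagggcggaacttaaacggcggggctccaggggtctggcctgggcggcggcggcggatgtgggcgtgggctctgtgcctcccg
Tet3, chr6:83441679-83441928, minus strand: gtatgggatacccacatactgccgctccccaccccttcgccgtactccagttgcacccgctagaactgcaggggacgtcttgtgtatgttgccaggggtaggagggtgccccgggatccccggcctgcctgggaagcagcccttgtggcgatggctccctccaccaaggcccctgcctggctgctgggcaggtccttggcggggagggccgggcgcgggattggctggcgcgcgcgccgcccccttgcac

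The levels of the family divided into genes that were lower in R7-II and genes that were higher there. Uhrf1, and by a smaller fold Dnmt1 and Dnmt3b, were highest in R7-III. Tet2 and Tet3 were highest in R7-II and lay close together in the other clones. Dnmt3a had the narrowest range of clone means on TPM among the 6 tested members relative to its level, which did not hold after median-of-ratios scaling. Changes are given as log2 fold changes of TPM + 1, which understate the change of genes with low values, and a gene was called when the Benjamini-Hochberg adjusted p of limma over all 11330 genes was below 0.01. Between R7-II and R7-I, 3 of the 6 tested members were called, 2 higher and 1 lower in R7-II, where 56.1% of all genes tested were called, 40.6% as higher and 15.5% as lower. Between R7-II and R7-III, 5 of 6 were called, 2 higher and 3 lower, against 53.6% of all genes, 35.6% as higher and 18.0% as lower. Between R7-III and R7-I, 3 of 6 were called and all 3 were higher in R7-III, against 8.41% of all genes, 6.96% as higher and 1.45% as lower. The 3 comparisons share libraries in pairs and are not independent.

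Several measurements over whole libraries bear on these counts. Libraries of a clone correlated at 0.992 to 0.997 across genes, no pair of libraries held identical values, and 13738 to 14434 genes had a TPM above 0. Over all tested genes the log2 fold change had a median of 0.17 for R7-II over R7-I and 0.12 over R7-III, but of 0.04 for R7-III over R7-I. After median-of-ratios scaling these medians were near 0, and the share of called genes that were higher in R7-II fell from 72.4% to 46.2% against R7-I and from 66.4% to 47.0% against R7-III, so values after this scaling are given for the members whose call it changed, and counts after it for the lists of genes around them. The balance of higher and lower calls among the members in R7-II changed with the scaling too, though no tested member changed sign in these comparisons. Against R7-I the calls were 1 higher and 4 lower after median-of-ratios scaling and 0 higher and 3 lower after quantile normalization. Against R7-III they were 2 higher and 4 lower, and 1 higher and 4 lower. The 5 CD8 T cell markers summed to 1369 to 1411 TPM in R7-I, 2064 to 2113 in R7-II and 1580 to 1597 in R7-III, as the sorting gate implies. The R7-II libraries also held more RNA of B cell markers (34.0 to 70.5 TPM summed over 7 genes, against 8.07 to 15.1 in R7-I and 4.88 to 7.34 in R7-III), of MHC class II genes (112 to 183 TPM over 7 genes, against 32.4 to 50.3 and 24.3 to 28.1) and of myeloid markers (99.7 to 158 TPM over 8 genes, against 63.3 to 71.3 and 63.9 to 71.1). Every one of these 22 genes had its highest clone mean in R7-II, none was at 0 throughout, and replicate 2 was the R7-II library with the lowest sum of each list. Most of the myeloid sum in R7-I and R7-III was Cst3, with means of 66.1 and 64.3 TPM against 79.5 in R7-II. The sum thus hides larger folds of other myeloid genes, such as Lyz2, at 13.8 to 56.7 TPM in R7-II, 0.25 to 0.65 in R7-I and 1.57 to 2.43 in R7-III. Summed CD4 T cell markers were at most 7.71 TPM and NK cell markers at most 0.17 TPM, with Klra8 listed at 0 throughout. In bulk RNA, fewer cells of a type and less RNA per cell cannot be told apart.

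**Figure D1:**
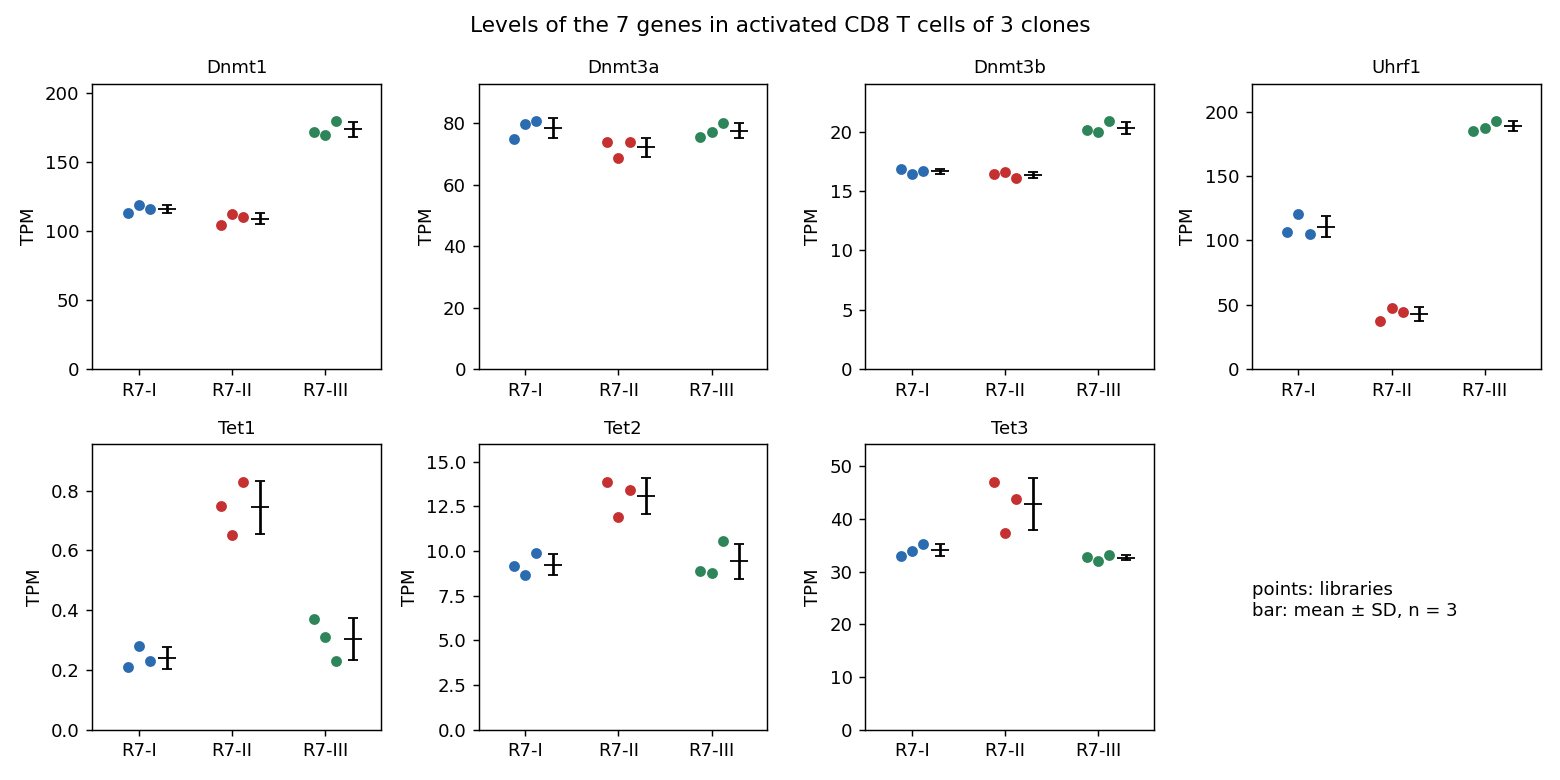
TPM of the 7 genes in each of the 9 libraries, 1 panel per gene, with the clone on the x axis, a point per library and a bar for the mean ± SD of 3 libraries. Uhrf1 takes 3 separate levels, from 37.0 to 47.2 TPM in R7-II up to 186 to 193 TPM in R7-III, while Dnmt3a stays between 68.5 and 80.8 TPM in all 9 libraries.

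Uhrf1, on chromosome 17 from 56303337 to 56323486 of mm10, differed most. Its level was 107, 120 and 105 TPM in the R7-I libraries, 37.0, 47.2 and 44.5 TPM in those of R7-II, and 186, 188 and 193 TPM in those of R7-III. The 3 clones occupied 3 ranges that did not overlap, with every R7-III library above every R7-I library and every R7-II library below both. The mean was 42.9 ± 5.28 TPM for R7-II, 111 ± 8.37 TPM for R7-I and 189 ± 3.88 TPM for R7-III, where errors are SDs over the 3 libraries of a clone, as for the other genes. R7-II thus held 0.388 of the R7-I level, a log2 fold change of -1.35 (SE 0.0795, adjusted p = 2.59e-07 in limma). It held 0.227 of the R7-III level (log2 fold change -2.12, 95% interval -2.29 to -1.94, adjusted p = 4.34e-08 in limma). Counted from the strongest decrease among the 11330 genes, Uhrf1 ranked 69 against R7-I and 48 against R7-III. R7-III exceeded R7-I 1.71-fold (log2 fold change 0.77, 95% interval 0.59 to 0.94, adjusted p = 1.73e-04 in limma). All 3 differences were called under each of the 20 other settings tried. The order R7-III over R7-I over R7-II was also that of the means of a list of S phase genes given below. Any tie of this order among 3 clones to self-reactivity or to peptide affinity was not tested.

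Dnmt1, on chromosome 9 from 20907206 to 20959888, was the most abundant methyltransferase in every library. It was at 113, 119 and 116 TPM in the R7-I libraries, 104, 112 and 110 TPM in those of R7-II, and 171.26, 169.15 and 179.52 TPM in R7-III. R7-III stood apart from the other clones, whose ranges lay next to each other without overlap. Against R7-I, R7-III was 1.5-fold higher (173 ± 5.48 against 116 ± 3.12 TPM, log2 fold change 0.58, adjusted p = 9.22e-06 in limma). Against R7-III, R7-II was at 0.628 of the level (109 ± 4.16 TPM, log2 fold change -0.67, 95% interval -0.75 to -0.58, adjusted p = 2.32e-07 in limma). The difference of R7-II from R7-I, -0.09 on the log2 scale with a 95% interval from -0.17 to -0.004, was not called (adjusted p = 0.0597 in limma). After median-of-ratios scaling it was -0.27 and called (adjusted p = 3.82e-04 in limma).

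Dnmt1 and Uhrf1 therefore differed between clones in unlike proportion, though their products act at the same step. The ratio of Uhrf1 to Dnmt1 TPM within a library, which no scaling of the library alters, was 0.950, 1.01 and 0.906 in R7-I, 0.355, 0.420 and 0.406 in R7-II, and 1.08, 1.11 and 1.08 in R7-III. The libraries of R7-II were lowest and those of R7-III highest, with no overlap between clones. An exact permutation F test over all 1680 assignments of the 9 libraries to 3 clones, on log2 values of TPM + 1, gave p = 0.00357, the smallest it can give (0.0125 after Benjamini-Hochberg adjustment over 7 ratios between members). Pairwise exact tests of 3 libraries against 3 cannot go below 0.1 and gave 0.1 for each pair.

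**Figure D2:**
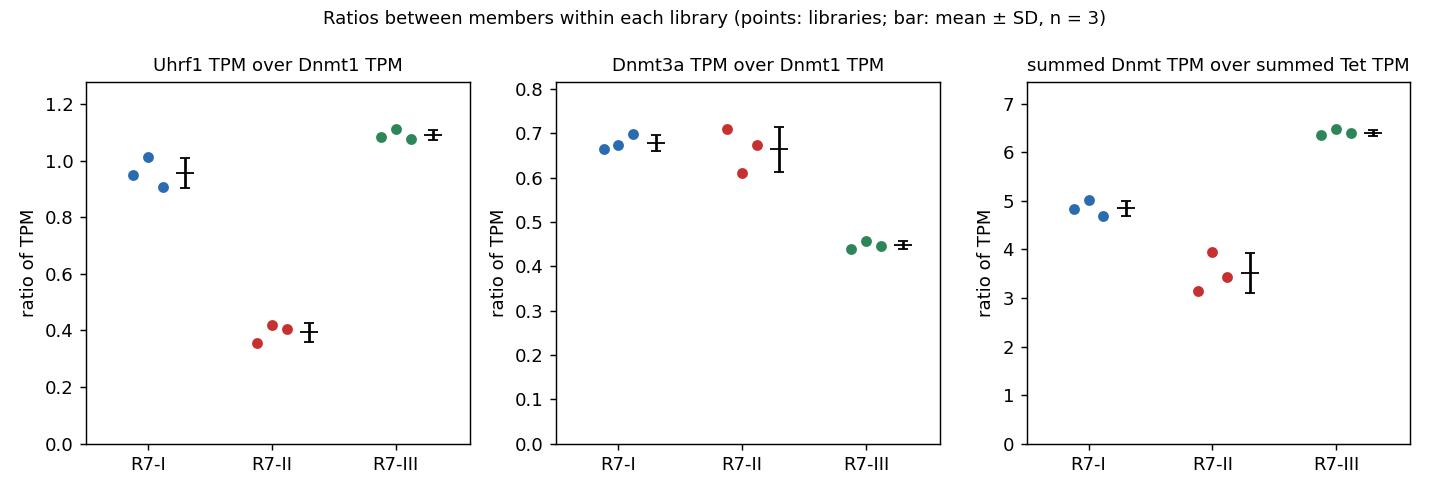
Ratios of TPM within each library: Uhrf1 over Dnmt1, Dnmt3a over Dnmt1, and summed Dnmt over summed Tet, with the clone on the x axis, a point per library and bars for the mean ± SD of 3 libraries. R7-II is lowest in the panels of Uhrf1 over Dnmt1 and of summed Dnmt over Tet, and R7-III is lowest in that of Dnmt3a over Dnmt1.

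Of the de novo enzymes, Dnmt3a, on chromosome 12 from 3801559 to 3914443, was nearly level across the clones. It was at 74.9, 79.9 and 80.8 TPM in the R7-I libraries, 73.9, 68.5 and 73.9 TPM in those of R7-II, and 75.4, 77.3 and 80.2 TPM in R7-III. R7-II was lowest without overlap, and the other clones overlapped. The log2 fold changes of R7-II were -0.12 against R7-I (95% interval -0.22 to -0.02, adjusted p = 0.0310 in limma) and -0.10 against R7-III (95% interval -0.20 to -0.007, adjusted p = 0.0563 in limma), neither called. Median-of-ratios scaling gave -0.31 (adjusted p = 2.99e-05 in limma) and -0.24 (adjusted p = 1.82e-04 in limma), both called, so the call for Dnmt3a rests on the scaling. R7-III differed from R7-I by -0.02 on the log2 scale, with a 95% interval from -0.11 to 0.08. The antisense transcript Dnmt3aos, whose reads cannot be told from those of Dnmt3a in libraries without strand, was at most at 0.33 TPM.

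Dnmt3b, on chromosome 2 from 153649411 to 153687730, was the least abundant of the 3 methyltransferases. It was at 16.9, 16.4 and 16.7 TPM in the R7-I libraries, 16.4, 16.6 and 16.1 TPM in those of R7-II, and 20.2, 19.9 and 20.9 TPM in R7-III. As for Dnmt1, the R7-III libraries were set above the rest, and those of R7-I and R7-II overlapped. R7-III exceeded R7-I 1.22-fold (20.3 ± 0.511 against 16.7 ± 0.235 TPM, log2 fold change 0.27, adjusted p = 0.00276 in limma), a call that was lost, with adjusted p between 0.0106 and 0.0146, when any 1 library of these clones was left out. R7-II was at 0.804 of the R7-III level (16.4 ± 0.273 TPM, log2 fold change -0.30, adjusted p = 2.22e-04 in limma), a call kept in all settings. R7-II and R7-I differed by -0.03 on the log2 scale (95% interval -0.13 to 0.08, adjusted p = 0.645 in limma), which became -0.20 and was called after median-of-ratios scaling (adjusted p = 0.00220 in limma).

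Dnmt1 thus made up a larger part of the methyltransferase RNA in R7-III than in the other clones. It was 63.9% ± 0.347 of the summed TPM of the 3 genes there, against 54.9% ± 0.514 in R7-I and 55.1% ± 1.66 in R7-II. Dnmt3a made up 28.6%, 37.2% and 36.6% in the same order of clones, and Dnmt3b 7.50%, 7.91% and 8.29%. The ratio of Dnmt3a to Dnmt1 was 0.448 ± 0.00835 in R7-III, 0.679 ± 0.0175 in R7-I and 0.664 ± 0.0502 in R7-II (exact permutation F test over the clones, p = 0.0321, adjusted 0.0450). The ratios of Dnmt3b to Dnmt1 and to Dnmt3a each gave p = 0.0107 in the same exact test (adjusted 0.0188).

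Tet3, on chromosome 6 from 83362373 to 83457208, supplied most of the Tet RNA, 75.5% to 78.2% of the sum of the 3 genes by clone mean. It was at 33.0, 34.0 and 35.3 TPM in the R7-I libraries, 47.1, 37.4 and 43.8 TPM in those of R7-II, and 32.8, 32.1 and 33.1 TPM in R7-III. All R7-II libraries were above all others, with replicate 2 the nearest to them. R7-II was 1.31-fold above R7-III (42.8 ± 4.92 against 32.6 ± 0.517 TPM, log2 fold change 0.37, 95% interval 0.22 to 0.53, adjusted p = 8.78e-04 in limma). It was 1.25-fold above R7-I (34.1 ± 1.16 TPM, log2 fold change 0.31, 95% interval 0.16 to 0.47, adjusted p = 0.00255 in limma). The call against R7-I was lost after median-of-ratios scaling (0.13, adjusted p = 0.0688 in limma), without R7-I replicate 1 (adjusted p = 0.0127) and without R7-II replicate 3 (adjusted p = 0.0106), whereas the call against R7-III was kept in each of these. R7-III and R7-I differed by -0.06 (95% interval -0.22 to 0.10, adjusted p = 0.613 in limma). The lncRNA gene B230319C09Rik, which overlaps Tet3, was at most at 0.55 TPM.

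Tet2, on chromosome 3 from 133463677 to 133545136, was likewise highest in R7-II. It was at 9.16, 8.68 and 9.87 TPM in the R7-I libraries, 13.9, 11.9 and 13.4 TPM in those of R7-II, and 8.88, 8.79 and 10.6 TPM in R7-III. The R7-II libraries lay above all others, and R7-I and R7-III overlapped. R7-II was 1.42-fold above R7-I (13.1 ± 1.02 against 9.24 ± 0.599 TPM, log2 fold change 0.46, 95% interval 0.27 to 0.65, adjusted p = 7.70e-04 in limma). It was 1.39-fold above R7-III (9.41 ± 1.00 TPM, log2 fold change 0.44, 95% interval 0.25 to 0.63, adjusted p = 0.00112 in limma). Median-of-ratios scaling left both called, at 0.29 and 0.31, and quantile normalization neither, at 0.16 (adjusted p = 0.0700 in limma) and 0.26 (adjusted p = 0.0107 in limma). R7-III and R7-I differed by 0.02 (95% interval -0.17 to 0.21, adjusted p = 0.899 in limma).

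Tet1, on chromosome 10 from 62804570 to 62887469, was close to the lower limit of the table. It was at 0.21, 0.28 and 0.23 TPM in the R7-I libraries, 0.75, 0.65 and 0.83 TPM in those of R7-II, and 0.37, 0.31 and 0.23 TPM in R7-III. The R7-II libraries were the highest without overlap, but all 9 values were below the level of 1 TPM needed for the test. The means were 0.240 ± 0.0361, 0.743 ± 0.0902 and 0.303 ± 0.0702 TPM, which put R7-II 3.10-fold above R7-I and 2.45-fold above R7-III. In the fit without a filter on low values the log2 fold changes were 0.49 (adjusted p = 1.20e-04 in limma) and 0.42 (adjusted p = 3.05e-04 in limma). Since TPM keeps no depth, the reads behind these low values are not known.

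Each Tet gene had its lowest R7-II value in replicate 2, the R7-II library with the lowest B cell, MHC class II and myeloid sums. With replicate 2 as the lone R7-II library, a comparison chosen after the data were seen and in which its spread is taken from the other clones, the log2 fold changes of Tet2 were 0.34 against R7-I (adjusted p = 0.0408 in limma) and 0.32 against R7-III (adjusted p = 0.0538 in limma). Those of Tet3 were 0.13 (adjusted p = 0.0692 in limma) and 0.19 (adjusted p = 0.0189 in limma). All 4 kept their direction and none was called, while Uhrf1 was called at -1.21 and -1.98. The part of other cell types in the Tet levels was not tested.

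Tet2 made up 21.2%, 23.2% and 22.2% of the summed Tet TPM in R7-I, R7-II and R7-III, and Tet1 0.552%, 1.32% and 0.719%. Exact permutation F tests over the clones gave p = 0.207 for the ratio of Tet2 to Tet3 (adjusted 0.207) and p = 0.164 for that of Tet1 to Tet3 (adjusted 0.192). The pseudocount of 1 in this test exceeds every Tet1 value, and with a pseudocount of 0.1 the log2 ratio of Tet1 to Tet3 was higher by 0.69 in R7-II than R7-III, with p = 0.00714 in the exact permutation F test. The ratio of summed Dnmt to summed Tet TPM was 4.83, 5.01 and 4.70 in R7-I, 3.15, 3.95 and 3.44 in R7-II, and 6.35, 6.47 and 6.39 in R7-III. The clones did not overlap, with R7-II lowest and R7-III highest, and the exact permutation F test gave p = 0.00357 (adjusted 0.0125). Summed Dnmt was 211, 197 and 271 TPM and summed Tet 43.5, 56.6 and 42.4 TPM in R7-I, R7-II and R7-III. R7-III and R7-I thus differed mainly in Dnmt, and R7-II and R7-I, on TPM, by a larger fold in Tet. After median-of-ratios scaling, the log2 fold changes of R7-II against R7-I were -0.27 for Dnmt1, -0.31 for Dnmt3a and -0.20 for Dnmt3b. Those of Tet3 and Tet2 were 0.13 and 0.29, so the larger fold in Tet rests on the scaling.

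**Figure D3:**
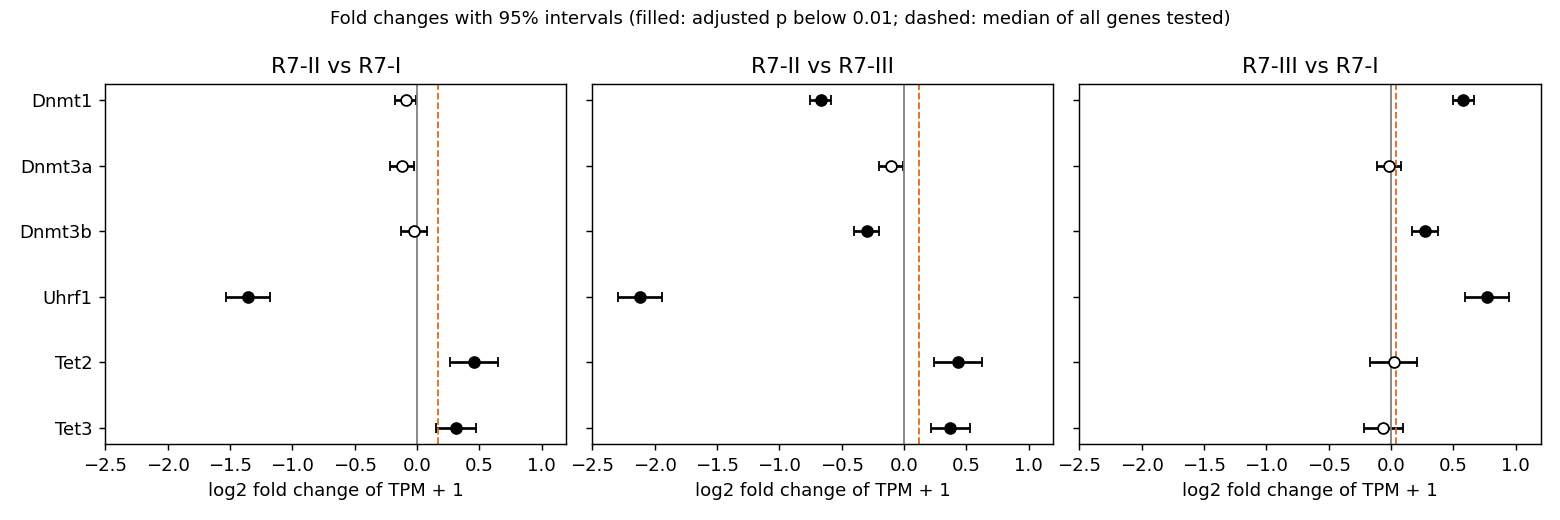
Log2 fold changes of TPM + 1 (x axis) of the 6 tested genes (y axis) in the 3 comparisons, 1 panel each, with 95% intervals from limma, filled points for adjusted p below 0.01 and a dashed line at the median of all genes tested. Uhrf1 is lowest in both R7-II panels, at -1.35 and -2.12, Tet2 and Tet3 lie between 0.31 and 0.46 there, and Uhrf1, Dnmt1 and Dnmt3b are the filled points between R7-III and R7-I.

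Uhrf1 and Dnmt1 belong to the genes known to be expressed in S phase, so the family was set against an S phase list. Of its 43 genes, Uhrf1 among them, 36 were lower and 1 higher in R7-II than R7-I, 42 lower in R7-II than in R7-III, and 38 higher in R7-III than in R7-I. The shares of all genes tested were 15.5% lower and 40.6% higher, 18.0% lower, and 6.96% higher in these comparisons. The median log2 fold changes were -0.55, -1.01 and 0.46, against 0.17, 0.12 and 0.04 for all genes tested. After median-of-ratios scaling the counts were 39 lower, 43 lower and 29 higher, with none in the other direction. A list of 51 tested G2M genes had medians of -0.37, -0.94 and 0.45. The mean log2(TPM + 1) of 39 S phase genes, without Uhrf1 and its partners, was 5.17 ± 0.0462 in R7-I, 4.54 ± 0.107 in R7-II and 5.75 ± 0.0547 in R7-III. The family was then measured from this level within each library.

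Dnmt1 lay 1.69 log2 units above the S phase list in R7-I and 1.69 in R7-III, a difference of 0.000458 between these clones (exact permutation test, p = 1). In R7-II it lay 2.24 units above the list, 0.54 more than in either other clone, and the 3 R7-II libraries (2.30, 2.21 and 2.21) were above all 6 others. Between R7-I and R7-III the level of Dnmt1 thus differed by nearly the same amount as the list, whereas in R7-II the list was lower and Dnmt1 nearly at its R7-I level. The exact permutation F test over the clones gave p = 0.0357. Within R7-II, replicate 1 was lowest for the list (4.42), Uhrf1 and Dnmt1 and highest for Tet2 and Tet3, and replicate 2 was highest for the list (4.62), Uhrf1 and Dnmt1 and lowest for Tet2 and Tet3, an order of 3 libraries that was not tested.

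Uhrf1 showed the opposite deviation, lying 1.63 units above the list in R7-I, 1.82 in R7-III and 0.91 in R7-II. In R7-II it was therefore lower than in R7-I by a difference of -0.72, and than in R7-III by -0.91, after the S phase level was taken off (exact permutation F test, p = 0.00357). The distances of Dnmt3a from the list were 1.14, 1.65 and 0.55 in R7-I, R7-II and R7-III, and those of Dnmt3b were -1.03, -0.42 and -1.34. Tet3 moved from -0.04 in R7-I to 0.91 in R7-II and -0.68 in R7-III. For Dnmt3a, Dnmt3b and each of the Tet genes the exact permutation F test also gave p = 0.00357, the smallest possible. Between each pair of clones the list itself differed by more than any of these 5 genes. The list alone separated the clones without overlap, so a gene at the same level in all clones would differ from it in the same way. These p-values therefore do not show a difference of these 5 genes themselves. With the G2M list in place of the S phase list, all 7 results stayed on the same side of 0.05.

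**Figure D4:**
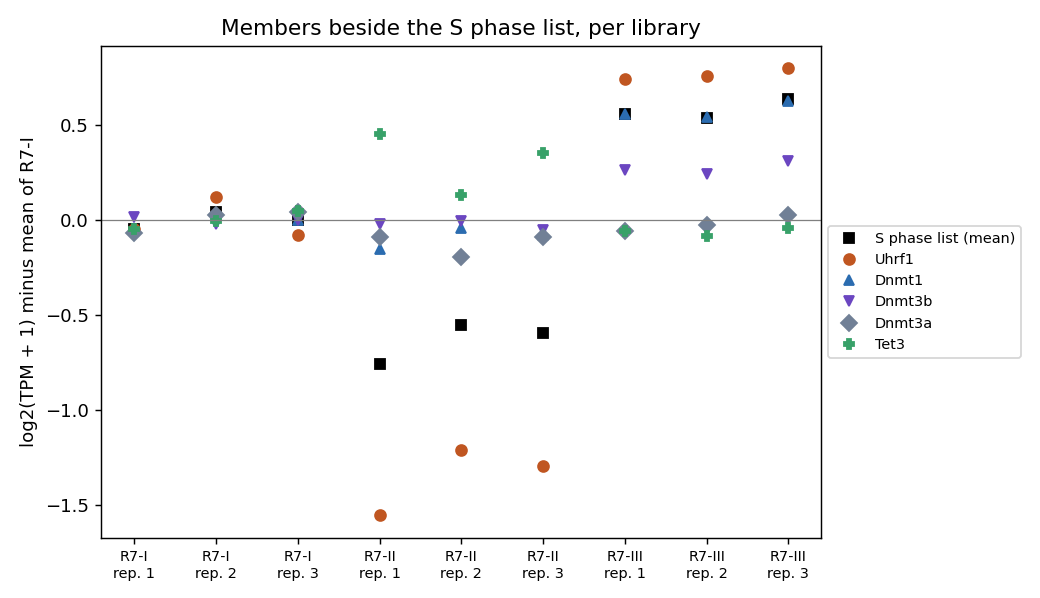
Log2(TPM + 1) of Uhrf1, Dnmt1, Dnmt3b, Dnmt3a and Tet3, and the mean over 39 S phase genes (black squares), each less its R7-I mean (y axis), in the 9 libraries (x axis). Dnmt1 lies on the squares in R7-III, but above them in R7-II, where Uhrf1 lies below them.

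The partners of maintenance methylation moved both ways. Of 10 genes, 4 were higher and 5 lower in R7-II than R7-I, 2 higher and 4 lower than in R7-III, and 4 were higher in R7-III than in R7-I, with median log2 fold changes of -0.03, 0.0006 and 0.16. Of all genes tested, 40.6% were higher and 15.5% lower in R7-II against R7-I, and 35.6% and 18.0% against R7-III. In R7-III against R7-I, 6.96% were higher and 1.45% lower. These are the shares beside which this count and those of the other lists stand. After median-of-ratios scaling the counts were 2 higher and 5 lower, 1 higher and 5 lower, and 2 higher. Hells, a chromatin remodeller needed for methylation of repeats, was at 30.3, 37.4 and 40.1 TPM in R7-II, below the 88.9 to 93.0 TPM of R7-I and the 124 to 129 TPM of R7-III. Its log2 fold changes were -1.32 (adjusted p = 3.03e-07 in limma) and -1.79 (adjusted p = 7.11e-08 in limma), the strongest of the list, and it was higher in R7-III than in R7-I (0.47, adjusted p = 0.00286 in limma). Its partner Cdca7 was lower too, with log2 fold changes of -0.55 and -0.72. Lig1, the ligase that joins Okazaki fragments and binds UHRF1, had log2 fold changes of -0.63 and -1.53. Pcna, the sliding clamp that carries DNMT1 at the fork, had log2 fold changes of -0.35 (adjusted p = 2.74e-06 in limma) and -0.59 (adjusted p = 1.24e-07 in limma). Zbtb24, which acts with Cdca7 and Hells, went the other way, with 20.3 TPM in R7-II against 12.2 and 12.7 TPM (log2 fold changes 0.70 and 0.63, adjusted p for the latter 2.64e-05 in limma).

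Relatives of the family gave smaller differences. Uhrf2, a homologue of Uhrf1, was at 29.1 to 31.1 TPM in R7-I, 33.4 to 38.8 TPM in R7-II and 31.7 to 33.4 TPM in R7-III. It was higher in R7-II than R7-I (log2 fold change 0.25, adjusted p = 0.00247 in limma), a call lost after median-of-ratios scaling, and its difference from R7-III was 0.12 (adjusted p = 0.0814 in limma). Trdmt1, a tRNA methyltransferase related in sequence to the Dnmt genes, was at 4.59 to 6.61 TPM throughout and was not called in any comparison. Dnmt3l, the catalytically inactive cofactor of DNMT3A in germ cells, was listed at 0 in all 9 libraries.

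Among 6 tested genes that steer de novo methylation, 4 were higher and 0 lower in R7-II than R7-I, and 2 were higher and 1 lower than in R7-III. After median-of-ratios scaling the counts were 1 higher and 2 lower, and 1 higher and 3 lower. Setd2, which trimethylates H3K36, a mark read by DNMT3B, rose to 41.9 TPM in R7-II from 30.2 in R7-I and 29.1 in R7-III (log2 fold changes 0.46 and 0.51, adjusted p for the latter 3.83e-05 in limma). Trim28, the corepressor of KRAB zinc finger proteins, was the lowest of the list, with log2 fold changes of -0.08 against R7-I (adjusted p = 0.0176 in limma) and -0.18 against R7-III (adjusted p = 1.23e-04 in limma).

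Of 7 genes listed as readers of methylated CpG or their relatives, 6 were higher and 0 lower in R7-II against R7-I. Their median log2 fold change was 0.42, where 40.6% of all genes were higher with a median of 0.17. Against R7-III, 6 were higher and 1 lower, with a median of 0.37, where 35.6% of all genes were higher with a median of 0.12. None was called between R7-III and R7-I. Median-of-ratios scaling left 6 higher and 1 lower against R7-I and 4 higher and 1 lower against R7-III. Zbtb4, a zinc finger reader and repressor, had the largest difference, at 9.14, 7.70 and 8.34 TPM in R7-II against 2.52 to 3.02 in R7-I and 2.80 to 3.27 in R7-III (log2 fold changes 1.35, adjusted p = 9.00e-07 in limma, and 1.24, adjusted p = 1.54e-06 in limma). Mbd3, a subunit of the NuRD complex, was the exception, at -0.15 against R7-III (adjusted p = 0.00134 in limma).

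Of 5 tested TET partners, 4 were higher than in R7-I and 5 than in R7-III, with 0 lower in either, but after median-of-ratios scaling 2 higher and 1 lower, and 2 higher, remained. Ogt, the O-GlcNAc transferase that binds TET2 and TET3, was at 126 to 153 TPM in R7-II, 97.4 to 105 in R7-I and 103 to 105 in R7-III (log2 fold changes 0.46, adjusted p = 6.05e-05 in limma, and 0.42, adjusted p = 1.23e-04 in limma). Cxxc5, a CpG-binding protein tied to TET2, had the largest difference from R7-III (0.54, adjusted p = 1.91e-04 in limma) and Hcfc1, an OGT partner, the smallest (0.13, adjusted p = 0.00425 in limma). Of 8 tested base excision genes, 3 were higher and 2 lower than in R7-I, and 3 higher and 1 lower than in R7-III, a share of higher genes near that of all genes. After median-of-ratios scaling 2 were higher and 5 lower in each comparison. Tdg, the glycosylase that removes the oxidised bases, fell by 0.34 against R7-I (adjusted p = 0.00375 in limma), and its difference from R7-III was -0.22 (adjusted p = 0.0353 in limma). Neil1, a glycosylase that can act after TDG, was higher by 0.89 (adjusted p = 1.64e-05 in limma) and 0.72 (adjusted p = 7.42e-05 in limma).

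In the cycle that makes the methyl donor S-adenosylmethionine, 2 of 6 genes were higher and 2 lower in R7-II against each other clone, and 2 higher and 3 lower after median-of-ratios scaling. The share of higher genes was near that of all genes. Mat2a, the catalytic subunit of its synthetase, was at 345 TPM in R7-I, 271 in R7-II and 347 in R7-III (log2 fold changes -0.35, adjusted p = 2.35e-05 in limma, and -0.36, adjusted p = 2.14e-05 in limma). Its regulatory subunit Mat2b rose from 67.2 and 66.6 TPM to 103 TPM (0.61 and 0.62, adjusted p for the latter 1.90e-06 in limma). Ahcy, which removes the inhibitory product S-adenosylhomocysteine, had log2 fold changes of -0.37 and -0.58 and was higher in R7-III than in R7-I (0.20, adjusted p = 0.00556 in limma). Around 2-oxoglutarate, the cosubstrate of the TET enzymes, 3 of 8 genes were higher and 2 lower in R7-II against each other clone, again a share of higher genes near that of all genes, and 2 higher and 4 lower after median-of-ratios scaling. Idh1, the cytosolic isocitrate dehydrogenase, had the highest log2 fold change against R7-III (0.95). Its level was 1.76 to 3.0 TPM in R7-II, 0.76 to 1.0 in R7-I and 0.76 to 0.81 in R7-III. Idh1 thus entered the test, and the 3 higher genes, only through its R7-II values. The mitochondrial Idh2 was not called, at -0.04 against R7-I (adjusted p = 0.706 in limma) and -0.17 against R7-III (adjusted p = 0.127 in limma).

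**Figure D5:**
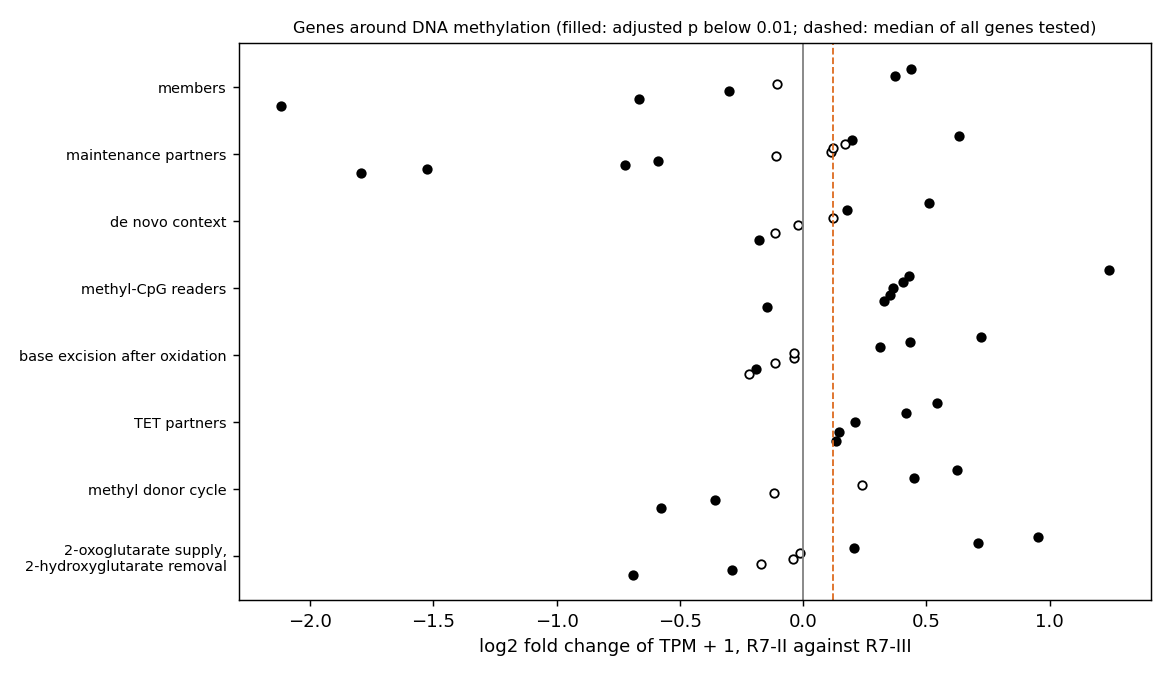
Log2 fold changes of TPM + 1 in R7-II against R7-III (x axis) for the tested genes of the family and of each pathway list (y axis), a point per gene, filled for adjusted p below 0.01 in limma, with a dashed line at the median of all genes tested. Hells (-1.79) and Lig1 (-1.53) lie lowest among the maintenance partners, and Zbtb4 (1.24) is the point farthest to the right.

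Germline genes known to be silenced by promoter methylation, and imprinted genes, were near or at 0 in all clones. Of 9 germline genes, 4 were listed at 0 in all 9 libraries and none reached 1 TPM, the highest value being 0.53 TPM for Tex11. Of 8 imprinted genes, 3 were at 0 throughout and Snrpn alone exceeded 1 TPM, reaching 2.09 TPM. Snrpn was higher in R7-II than R7-I (log2 fold change 0.72, adjusted p = 0.00474 in limma), a call lost after median-of-ratios scaling. DNA methylation itself was not measured, so these low levels do not show its state in any clone.

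The genes most like each member were found as those with the smallest root-mean-square difference of centred log2(TPM + 1) over the 9 libraries, among 8839 tested genes with a mean of at least 5 TPM. For Uhrf1 they included Dtl (0.0852), a subunit of a replication-coupled ubiquitin ligase, and Trip13 (0.0899). Dtl was at 38.7, 16.2 and 65.6 TPM in R7-I, R7-II and R7-III. For Dnmt1 they were Pole2 (0.0558), a subunit of DNA polymerase epsilon, Tiam1 (0.0629) and Wdr76 (0.0639). Pole2 was at 25.4, 22.1 and 36.9 TPM, close to the pattern of Dnmt1 with R7-II just under R7-I. For Dnmt3b they were Dek (0.0251), the mismatch repair gene Msh6 (0.0265) and Sae1 (0.0309).

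Tet2 was closest to Supt20 (0.0435), Lemd3 (0.0447) and the telomere gene Terf2 (0.0478), and Tet3 to the splicing cofactor gene Son (0.0324), Slc35f6 (0.0338) and the cyclin gene Ccnl1 (0.0345). Dnmt3a was closest to Nsun5 (0.0246), Pde12 (0.0248) and Pitpnb (0.0278), which were also nearly level across the clones. Within the family Tet2 and Tet3 were the nearest pair, at 0.0918, whereas Uhrf1 and Dnmt1 were 0.648 apart and Uhrf1 and Tet2 1.09. From Uhrf1, Dnmt1 ranked 427 among these genes. These are likenesses over 9 libraries that share 3 clones and are given as descriptions.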

How the data were processed

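Sorted CD8 T cells of 3 clones, activated with ROP7 peptide, gave 3 RNA libraries each. The authors aligned single-end reads without strand information and estimated gene levels with RSEM 1.2.11 on mm10 RefSeq genes, and they deposited TPM values per gene symbol. The aligner behind RSEM was not stated in the sources used. The authors' own tests used DESeq2 1.8.1 on counts, which were not used here. TPM keeps no depth, so no counting intervals are given, and a change in abundant genes shifts all others. Each of the 9 columns was assigned to its library through the library name in the labels.

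Of 24060 genes, the 11330 with a maximum TPM above 1 were tested on log2(TPM + 1) with limma 3.58.1 in R 4.3.3 (eBayes with trend) in a single fit of the 9 libraries. The p-values were adjusted by Benjamini-Hochberg and called below 0.01. Two-sided exact permutation tests over libraries were run in Python 3.11.15 with numpy 2.4.6 on log2 values of TPM + 1. The labels call the libraries biological replicates without naming mice, so p-values measure the spread between these libraries. Positions are from RefSeq (GRCm38.p6, the same build as mm10).

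The members and the lists were chosen with earlier results of these data known. The rule named all 7 members, 9 relatives and substrate genes whatever their values, the lowest and highest gene of each pathway list in R7-II against R7-III, and the 3 genes nearest to each member. Of the genes so named, 2 are not reported here. Cdca7, Lig1 and Snrpn were named after their values were seen. Alternatives changed the pseudocount, filter, scaling, moderation, threshold or samples in the fit, added a replicate block, or left out single libraries.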

Additional observations from a re-analysis of the deposited data

How the results depend on the processing

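The 18 member comparisons were repeated under 20 alternatives each. Uhrf1 in all 3 comparisons, Dnmt1 between R7-III and each other clone, and Dnmt3b between R7-II and R7-III kept direction and call throughout. The 7 levels relative to the S phase list were repeated only with other pseudocounts, with the G2M list and without single libraries, not after rescaling. There the direction of R7-II less R7-III and the side of 0.05 in the exact permutation F test were kept. Directions between the other pairs of clones were not followed for these levels. The number of members called between R7-II and R7-I was 3, became 5 after median-of-ratios scaling (1 higher and 4 lower) and 1 with R7-II replicate 2 as the lone R7-II library, and was 2 to 3 when 1 library was left out. Between R7-II and R7-III it was 5 and became 3 with that lone library, when 3919 genes in all were called against 6077. That alternative was chosen after the data were seen, and its construction leaves fewer libraries. Quantile normalization took away the calls of Tet2 against R7-I (0.16, adjusted p = 0.0700) and R7-III (adjusted p = 0.0107), of Tet3 against R7-I (0.12, adjusted p = 0.107) and of Dnmt3b between R7-III and R7-I (adjusted p = 0.0191), and added Dnmt3a and Dnmt3b as lower in R7-II than R7-I (-0.22 and -0.29) and Dnmt3a against R7-III (-0.16); the cause was not tested. Tet3 against R7-I also lost its call with only these clones in the fit (adjusted p = 0.0101). Of all genes, 953 were called between R7-III and R7-I, 2142 at an adjusted p of 0.05, and 422 (without R7-I replicate 1) to 1076 (without R7-II replicate 2) when 1 library was left out. Between R7-III and R7-I, the uncalled differences of Dnmt3a and Tet2 changed sign, while that of Tet3 stayed below 0: Dnmt3a ranged from -0.0500 to 0.0043 when 1 library was left out, with 0.0040 without R7-III replicate 1, and Tet2 was -0.0268 after median-of-ratios scaling, -0.0916 after quantile normalization and -0.0561 to 0.0661 when 1 library was left out, with -0.02 without R7-I replicate 2. The log2 ratio of Tet2 to Tet3 in R7-II less that in R7-III, 0.06, was -0.0111 with a pseudocount of 5. That of Tet1 to Tet3, 0.05, was 0.69 with a pseudocount of 0.1, where the exact permutation test gave p = 0.00714, and -0.22 with a pseudocount of 5, and -0.0055 to 0.114 when 1 library was left out, since Tet1 lies below these pseudocounts or near them. In 0 of 9 pairs did same-numbered libraries correlate above 0.1 in their deviations from the clone means (-0.0449 to 0.0888). Different-numbered libraries gave -0.0948 to 0.0649. With 3 libraries per clone this check cannot exclude a pairing by replicate number. With the replicate block the genes called were 6015, 5786 and 733 and the members called 3, 5 and 3 for R7-II against R7-I, R7-II against R7-III and R7-III against R7-I, and no call of a member changed. The unknown depth limits what the low values of Tet1 can show.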
